A study of Mus musculus with 5 samples.

Results

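The sorting nexins are a family of proteins that share a PX domain, a module that binds phosphoinositide lipids on membranes. The genes described here are the 30 rows of the expression table, of 22183 in all, whose symbol is Snx followed only by digits. The family was singled out because of 2 of its genes, Snx22 (lower in the mutant lenses) and Snx31 (higher). Values of these 2 genes in the mutant and control lenses are therefore given as a description, without a test. The other 28 genes entered by name alone.

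RNA was taken from whole lenses of mice at postnatal day 14 (P14). The cKO group (2 libraries) carried Cre together with floxed Yap1, either on both alleles (Yap1f/f;Cre) or on 1 (Yap1f/+;Cre). Lenses entered it by their severe phenotype, small eyes with a closed pupillary membrane, and not by genotype. The Ctrl group (3 libraries) came from littermates with floxed alleles and no abnormality (Yap1f/f and Yap1f/+), which the genotype field calls WT. Each library was a pool of 4 to 6 lenses. The labels do not state the strain, the driver of Cre or how the 2 genotypes of a group were divided over its pools. Yap1 encodes a transcriptional co-activator controlled by the Hippo pathway.

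Sorting nexins act on endosomes, the compartments in which proteins taken up from the cell surface are either sent to the lysosome or retrieved. Members with a BAR domain bend membrane into tubules and work beside the retromer coat. Members with a FERM domain bind sorting signals in receptor tails, and members with an SH3 domain act in endocytosis with dynamin. Large members with a PXA domain sit at contacts of the endoplasmic reticulum. In the deposited annotation all 30 genes carried the term phosphatidylinositol binding, against 109 genes in the whole table. Protein transport was listed for 26 of the 30 and early endosome membrane for 14. The retromer complex term was listed for 7, out of 20 genes with that term in the table.

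The libraries held 22047553 to 25762805 expected counts. Defining lens fibre markers (10 genes, among them Cryaa, Mip and Lim2) summed to 201476 to 242470 CPM in Ctrl and to 226037 and 239898 CPM in cKO 1 and 2, where CPM is a count scaled to library size after TMM normalization. Most of that sum was Cryaa and Crybb2, while Lgsn (−4.20) and Bfsp1 (−1.34) were lower (adjusted p = 0.0188 and 0.0227 in edgeR) and the list median was −0.43. The 8 lens epithelium markers summed to 1908 to 2197 CPM in Ctrl and to 1198 and 2479 CPM in cKO 1 and 2, with Mab21l2 at 0 in both cKO libraries. Most of that sum was Dkk3 and Sfrp1, which were not called, while 5 of the 8 (Cdh1, Pax6, Npnt, Gja1 and Mab21l2) were lower by edgeR and the median log2 fold change was −2.77. Mab21l2 and Cdh1, the latter with 1 and 0 counts in cKO 1 and 2, passed the count filter through the Ctrl group only. The 14 macrophage and leukocyte markers summed to 2.27 to 4.13 CPM in Ctrl and to 289 and 55.5 CPM in cKO 1 and 2, with Ptprc at 0 in every Ctrl library. Of these 14 genes, 10 were tested and 9 were higher in cKO by edgeR. Most of the 9, among them Aif1, Tyrobp and C1qa, passed the count filter through the cKO group only, so the filter favoured that direction. The part of these marker lists in the sorting nexin values was not tested. Yap1 had 155, 133 and 143 counts in Ctrl 1, 2 and 3 and 92 and 61 in cKO 1 and 2, a log2 fold change of −1.08 (SE 0.33) that was not called (adjusted p = 0.0759 in edgeR). The Y-linked gene Ddx3y had 656 to 854 counts in the Ctrl libraries and 0 in both cKO libraries, so sex and genotype cannot be told apart. In bulk lens RNA, fewer cells of a type and less RNA per cell cannot be told apart either.

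Of the 30 genes, 28 had counts in every library. Snx33 had 0 counts in cKO 2, and Snx20 had 8 counts in cKO 1 and 0 in the other 4 libraries. Snx20, which encodes a leukocyte protein that binds the P-selectin ligand, was the only member that did not pass the filter on low counts, so 29 genes were tested. Its 8 counts stood in the library with the higher sum of macrophage and leukocyte markers, and the part of that sum in this value was not tested. A count of 0 allows up to 3 counts, which is 0.115 to 0.146 CPM in a Ctrl library.

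Levels of different genes were compared as FPKM, which is scaled to gene length. In Ctrl lenses 7 members lay above 10 FPKM, 17 lay between 1 and 10, and 6 lay below 1. Snx22, a small protein with little beyond its PX domain, was the most abundant at 124 ± 11.5 FPKM (SD, n = 3), place 199 among all 22183 genes. Snx3, which recruits retromer to endosomes and takes part in recycling of the Wnt carrier Wntless, came next at 79.9 ± 4.1 FPKM. Snx1, a BAR-domain partner of retromer, followed at 37.2 ± 5.28 FPKM and its relative Snx6 at 22.05 ± 1.94 FPKM. The Ctrl libraries of each of these 4 genes lay wholly above those of the next gene in the order. The order was less clear further down, since 17 of the 29 pairs of neighbours in it overlapped. Snx18 (18.2 ± 2.24 FPKM) and Snx5 (17.6 ± 1.57 FPKM), for example, were not separate. At the low end were Snx30 (0.297 ± 0.0294), Snx31 (0.28 ± 0.0368), Snx25 (0.187 ± 0.0581) and Snx33 (0.152 ± 0.0533 FPKM). Without length scaling, Snx18 took place 3 by CPM, and 4 of the 5 highest genes by FPKM were also among the 5 highest by CPM.

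**Figure D1:**
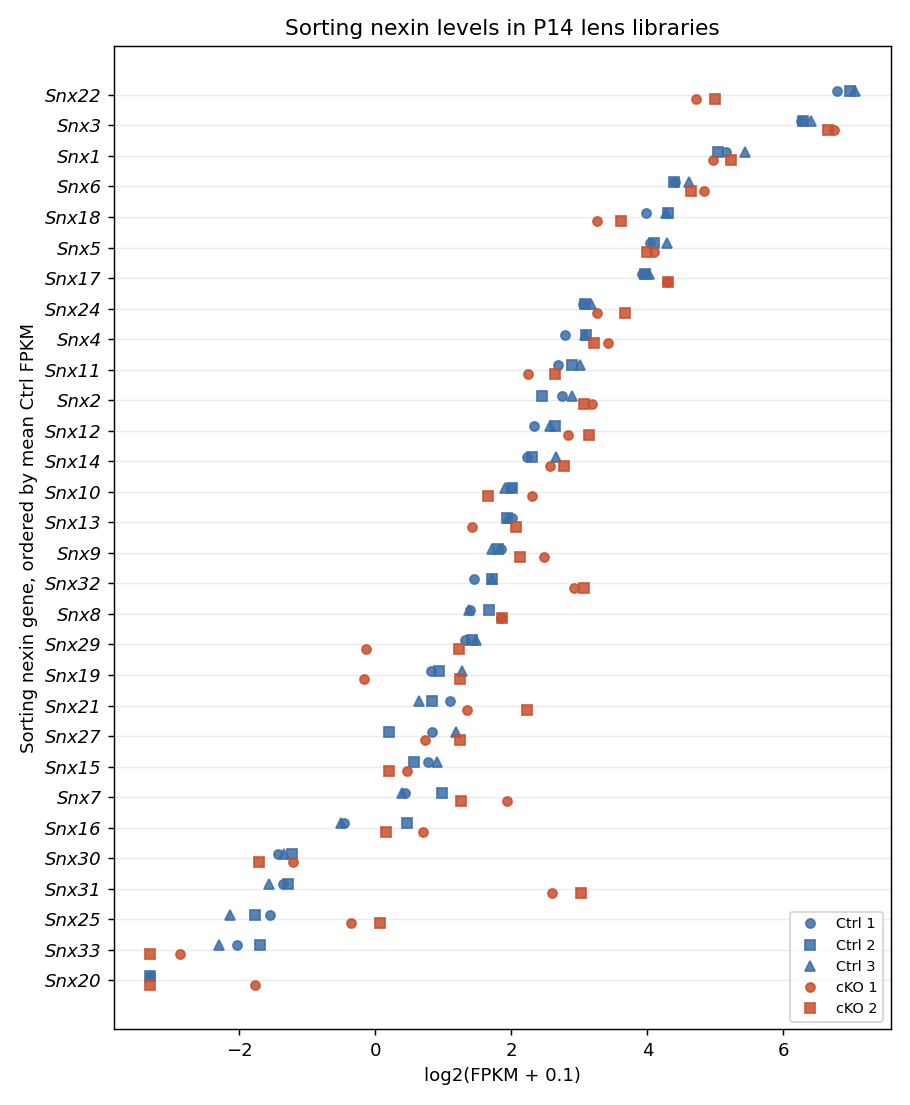
Level of each of the 30 sorting nexins as log2(FPKM + 0.1) in the 3 Ctrl (blue) and 2 cKO (red) libraries, with genes ordered by mean Ctrl FPKM. Snx22 is the highest gene in every Ctrl library and lies below Snx3 in both cKO libraries, and Snx31 moves from the low end to the middle of the order.

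In cKO lenses the order changed at both ends. Snx3 stood first at 104 ± 3.9 FPKM (SD, n = 2), then Snx1 at 34.2 ± 4.57 and Snx22 at 29.03 ± 3.94 FPKM. Snx31 moved from place 27 to place 13 of 30, at 7.0 ± 1.52 FPKM. Snx32 moved from place 17 to place 11, at 7.91 ± 0.572 FPKM, and Snx18 from place 5 to place 8, at 10.8 ± 1.89 FPKM. Among all genes of the table, Snx22 moved from place 199 to place 1205 and Snx31 from place 10335 to place 3311.

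Of the 27 tested members other than Snx22 and Snx31, 1 was higher in cKO (Snx32) and 1 was lower (Snx18) at an adjusted p under 0.05 in edgeR. Among all 11724 genes tested, 5.76% were higher and 7.73% were lower, or 13.5% in either direction, so the counts were no higher than the background. The median log2 fold change of all 29 tested members, with Snx22 and Snx31 among them, was 0.06, against −0.06 over all genes tested. The median size of the change, whatever its direction, was 0.33 for the members and 0.54 over all genes tested. Of the 27, 12 had a log2 fold change within 0.25 of no change and 24 within 1. Scaling by total counts turned the split of all calls from 42.7% to 63.2% higher, and by limma on log2(FPKM + 1) it was 65.0% higher. Snx18 and Snx32 were called under both, and Snx25 by limma as well.

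**Figure D2:**
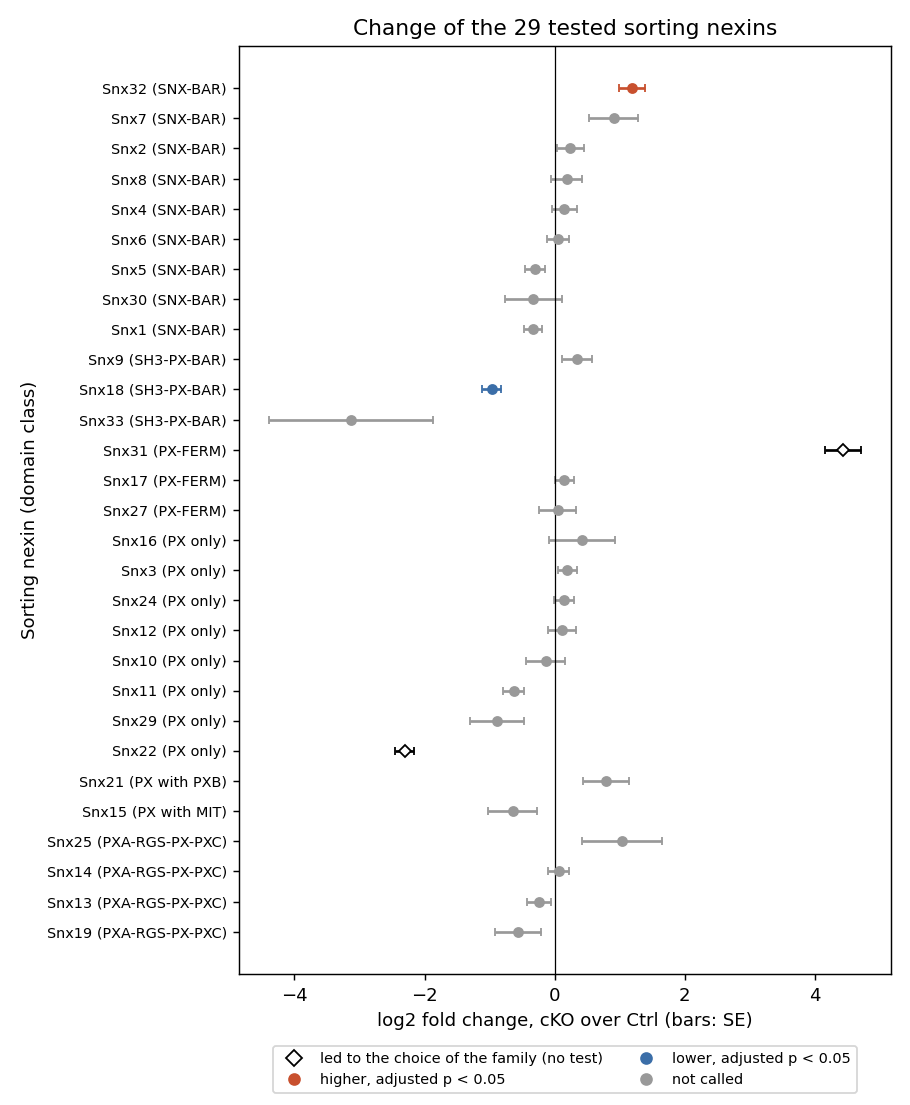
Log2 fold change (cKO over Ctrl) with an SE derived from the F statistic for the 29 tested sorting nexins, grouped by domain class. Snx32 (1.19) and Snx18 (−0.97) are coloured as called by edgeR, the open diamonds for Snx22 (−2.31) and Snx31 (4.43) mark the genes that led to the choice of the family, and grey genes were not called.

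Snx22 (ENSMUSG00000039452) had 6812.22, 7109.82 and 8720.74 expected counts in Ctrl 1, 2 and 3 and 1623.17 and 1834.16 in cKO 1 and 2. These were 316, 347 and 335 CPM in Ctrl and 66.3 and 68.3 CPM in cKO. Both cKO pools lay far below every Ctrl pool and differed from each other by 1.03-fold. The group levels were 333 ± 15.6 CPM in Ctrl (n = 3) and 67.3 ± 1.43 CPM in cKO (n = 2), a log2 fold change of −2.31 (SE 0.14) or 4.94-fold lower. Over all 13 alternative analyses its log2 fold change lay between −2.33 and −2.05.

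Snx22 counts were not whole numbers, as RSEM gives where reads fit more than 1 gene. In the GENCODE M21 annotation (build GRCm38, not the build of the files), the exons of Snx22 and of Ppib lie on opposite strands and share 825 bases, 28.5% of the 2891 exonic bases of Snx22. Ppib encodes cyclophilin B, a folding enzyme of the endoplasmic reticulum. Its counts were likewise not whole, and the use of strand in the counting is not given, so the division of reads between the pair is uncertain. Ppib lay at 42.3, 35.1 and 38.0 CPM in Ctrl 1, 2 and 3 and at 49.7 and 41.4 CPM in cKO 1 and 2. The groups overlapped and its log2 fold change of 0.24 (SE 0.16) was not called (adjusted p = 0.336 in edgeR). The part of these shared bases in the Snx22 values was not tested.

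The gene next to Snx22 on its other side is Snx1, another member, per the RefSeq gene order of GRCm38. Snx1 lay at 81.9, 72.9 and 87.7 CPM in Ctrl 1, 2 and 3 and at 63.1 and 65.6 CPM in cKO 1 and 2. Both cKO pools were below every Ctrl pool, but the log2 fold change of −0.33 (SE 0.14) was not called (adjusted p = 0.168 in edgeR). Of the other protein-coding genes within 3 places of Snx22, none was called by edgeR. Pclaf, a replication-associated gene, had −1.94 (SE 0.58; adjusted p = 0.0755 in edgeR), Ciao2a had 0.59 (SE 0.17; adjusted p = 0.0683 in edgeR) and the kinase gene Csnk1g1 had 0.29 (SE 0.59; adjusted p = 0.78 in edgeR). Dapk2 was too low to test.

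The sequences upstream of the lower genes are shown because the study concerns YAP1, which acts through TEAD factors at the motif GGAATG. Each runs 5′ to 3′ from 250 bases before to 50 bases after an annotated start, from RefSeq (GRCm38.p6), and capitals mark a match to the motifs searched. The Snx22 window, 1 of 2 annotated for it, is at chr9:66069682-66069981 and the Snx18 window at chr13:113618515-113618814, both on the minus strand.
Snx22: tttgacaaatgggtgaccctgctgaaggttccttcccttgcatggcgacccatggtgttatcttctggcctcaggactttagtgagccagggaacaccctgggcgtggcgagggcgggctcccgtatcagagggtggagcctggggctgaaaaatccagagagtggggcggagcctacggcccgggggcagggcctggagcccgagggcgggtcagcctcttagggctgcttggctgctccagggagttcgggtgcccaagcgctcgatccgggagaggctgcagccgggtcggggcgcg
Snx18: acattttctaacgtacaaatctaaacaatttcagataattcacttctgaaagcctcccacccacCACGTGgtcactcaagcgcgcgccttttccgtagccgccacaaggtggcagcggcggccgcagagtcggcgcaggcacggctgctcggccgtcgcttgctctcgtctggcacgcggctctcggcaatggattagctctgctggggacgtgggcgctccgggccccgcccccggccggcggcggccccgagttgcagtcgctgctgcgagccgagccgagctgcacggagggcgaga
Neither window held GGAATG on either strand. The Snx18 window held the E-box CACGTG, and the Snx22 window held neither that motif nor the AP-1 motif TGANTCA.

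Promoter windows of 21 of the 30 members were used (26 windows, since some genes have several starts). Any member window on 1 chromosome, the one numbered as in the name Snx18, was left out. Windows on that chromosome were kept among all windows. GGAATG was found on either strand in 1 member, Snx29, and in 14.7% of all 32851 windows of that length. CACGTG was found in 3 members (Snx5, Snx8 and Snx18) and in 7.15% of all windows. TGANTCA was found in 2 members (Snx10 and Snx29) and in 7.81% of all windows. The motifs did not overlap one another in these letters. The member windows had a median GC content of 65.3%, against 52.7% for all windows. No window of Snx31 or Snx32 was used.

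Snx31 (ENSMUSG00000013611) encodes a FERM-domain relative of Snx17 that is best known from the bladder. It had 19, 16 and 15 counts in Ctrl 1, 2 and 3 and 368 and 463 counts in cKO 1 and 2, all whole numbers. This was 0.881, 0.781 and 0.576 CPM in Ctrl and 15.03 and 17.2 CPM in cKO. Every cKO pool lay far above every Ctrl pool. The levels of 0.746 ± 0.156 CPM (Ctrl, n = 3) and 16.1 ± 1.57 CPM (cKO, n = 2) gave a log2 fold change of 4.43 (SE 0.27), or 21.6-fold higher. Over the alternatives it ranged from 2.63 with 1 added to the FPKM values to 4.66. The cKO pool with the lower sum of macrophage and leukocyte markers, cKO 2, had the higher Snx31 level, by 1.15-fold. The part of that sum in the Snx31 values was not tested.

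The gene beside Snx31 moved the other way. Ankrd46, next to it in the RefSeq gene order, lay at 139, 122 and 130 CPM in Ctrl 1, 2 and 3 and at 19.4 and 25.2 CPM in cKO 1 and 2. It fell by 2.55 on the log2 scale (SE 0.18; adjusted p = 0.00315 in edgeR). On the other side of Snx31, Pabpc1, which encodes a poly(A)-binding protein, had a change of 0.55 (SE 0.21) that was not called (adjusted p = 0.129 in edgeR). Ywhaz, Zfp706 and Rnf19a, at 2 and 3 places from Snx31, had changes of −0.37, −0.22 and −0.61 and were not called (adjusted p = 0.129, 0.305 and 0.0919 in edgeR). Spag1, at 3 places on the Ankrd46 side, had 0 counts in both cKO libraries and 0.603 to 0.83 CPM in Ctrl, and was called lower (adjusted p = 0.0295 in edgeR), having passed the count filter through the Ctrl group only.

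Within the FERM class the balance of the 3 members shifted. Snx17, which binds cargo receptors and works with the Commander complex, lay at 34.2, 32.4 and 31.6 CPM in Ctrl 1, 2 and 3 and at 39.1 and 33.5 CPM in cKO 1 and 2. The groups overlapped, with a log2 fold change of 0.15 (SE 0.14; adjusted p = 0.516 in edgeR). Snx27, a PDZ-domain member that works with retromer, had 0.05 (SE 0.29; adjusted p = 0.936 in edgeR). Per length, Snx17 RNA exceeded Snx31 RNA by 50.2- to 67.4-fold in the Ctrl libraries and by 3.29- and 2.44-fold in cKO 1 and 2. Snx17 thus remained the more abundant of the pair in all 5 libraries.

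Snx18 belongs to the SH3-domain class with Snx9 and Snx33, which act in membrane scission during endocytosis. It lay at 77.9, 94.3 and 84.5 CPM in Ctrl 1, 2 and 3 and at 41.9 and 45.6 CPM in cKO 1 and 2. The groups did not overlap, and the lowest Ctrl pool was well above the highest cKO pool. Snx18 fell by 0.97 on the log2 scale (SE 0.15; adjusted p = 0.017 in edgeR), which is 1.96-fold. Its direction was the same in all 13 alternatives (−1.03 to −0.70), which re-used the same libraries. It was called by DESeq2, by limma and by edgeR with other scalings or filters. With the replicate block it was not called (adjusted p = 0.109 in edgeR). The call was lost without Ctrl 1, 2 or 3 (adjusted p = 0.0823, 0.108 and 0.0956 in edgeR), where 0.566, 0.182 and 0.713% of all genes tested were called.

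Snx9 was not called. It had 13.0, 12.1 and 10.4 CPM in Ctrl 1, 2 and 3 and 18.1 and 12.1 CPM in cKO 1 and 2, a change of 0.35 (SE 0.23; adjusted p = 0.355 in edgeR). Per length, Snx18 exceeded Snx9 by 4.48- to 6.06-fold in Ctrl and by 1.73- and 2.83-fold in cKO 1 and 2. The remaining member of the class, Snx33, had 16, 21 and 12 counts in Ctrl 1, 2 and 3 and 4 and 0 counts in cKO 1 and 2. It passed the count filter through the Ctrl group only, and its change of −3.13 (SE 1.26) was not called (adjusted p = 0.147 in edgeR). Close to Snx18 in the gene order, the small heat-shock gene Hspb3 rose by 1.06 (SE 0.18; adjusted p = 0.0204 in edgeR), opposite to Snx18. Cspg4b, on the other side, had 0 counts in both cKO libraries and 0.371 to 1.15 CPM in Ctrl, and it was called lower (adjusted p = 0.0447 in edgeR) after passing the count filter through Ctrl only. Arl15 (0.21) and Ndufs4 (−0.32) were not called (adjusted p = 0.477 and 0.341 in edgeR), and Esm1 and Gzmk were too low to test.

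Snx32 is a BAR-domain member closely related to Snx5 and Snx6. It lay at 5.06, 5.81 and 5.37 CPM in Ctrl 1, 2 and 3 and at 12.7 and 12.0 CPM in cKO 1 and 2. The groups were well separated, and the cKO pools differed by 1.06-fold. Snx32 rose by 1.19 on the log2 scale (SE 0.19; adjusted p = 0.0199 in edgeR), which is 2.28-fold. Its direction held in all 13 alternatives (1.14 to 1.4), which re-used the same libraries. DESeq2, limma and edgeR with other scalings or filters called it. With the replicate block it was not called (adjusted p = 0.175 in edgeR). Without Ctrl 1, 2 or 3 the call was lost (adjusted p = 0.102, 0.113 and 0.0945 in edgeR). In those fits only 0.566, 0.182 and 0.713% of all genes tested were called. Among its neighbours in the gene order, Efemp2, Mus81 and Cfl1 were not called (adjusted p = 0.161, 0.756 and 0.152 in edgeR). Ap5b1, at 3 places on the other side, had 0 counts in both cKO libraries and 0.422 to 0.835 CPM in Ctrl. It was called lower (adjusted p = 0.0412 in edgeR), but it too passed the filter through Ctrl only. Ovol1 was too low to test.

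**Figure D3:**
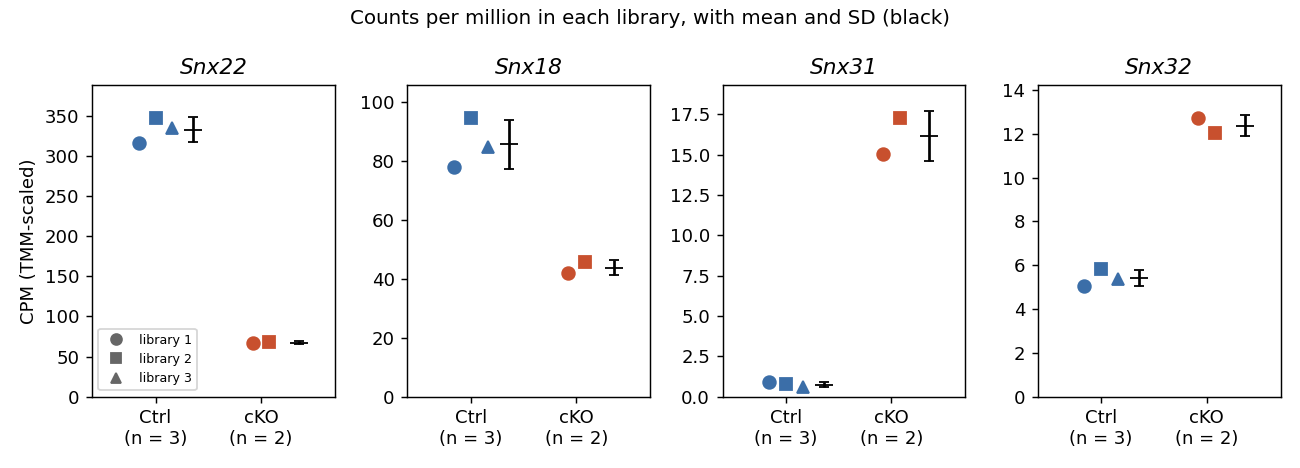
TMM-scaled CPM of Snx22, Snx18, Snx31 and Snx32 in each library, with the mean and SD of each group in black and each axis starting at 0. For all 4 genes the 2 cKO libraries stand close together and apart from the 3 Ctrl libraries.

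Snx32, Snx5 and Snx6 are interchangeable partners of Snx1 and Snx2 in a sorting complex that exports cargo from endosomes. Among these 5 genes only Snx32 was called. Snx5 lay at 44.8, 44.9 and 46.6 CPM in Ctrl 1, 2 and 3 and at 41.1 and 32.5 CPM in cKO 1 and 2, a change of −0.30 (SE 0.15; adjusted p = 0.232 in edgeR). Snx6 lay at 44.96, 43.1 and 46.2 CPM in Ctrl 1, 2 and 3 and at 52.97 and 39.4 CPM in cKO 1 and 2, on both sides of the Ctrl range. Its change was 0.05 (SE 0.17; adjusted p = 0.878 in edgeR), and that of Snx2 was 0.24 (SE 0.21; adjusted p = 0.479 in edgeR). Of the summed FPKM of Snx5, Snx6 and Snx32, Snx32 made up 6.54, 7.72 and 6.76% in Ctrl 1, 2 and 3 and 14.2 and 16.9% in cKO 1 and 2. Snx32 thus remained the least abundant of the 3 in cKO. The summed FPKM of Snx5, Snx6 and Snx32 was 0.93 to 1.07 times that of Snx1 and Snx2 in Ctrl, and 1.33 and 1.07 times in cKO 1 and 2.

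The other BAR-domain members were not called by edgeR. Snx4, a recycling and autophagy factor, had a change of 0.15 (SE 0.19; adjusted p = 0.624 in edgeR). Its partners Snx7 and Snx30 had 0.91 (SE 0.38; adjusted p = 0.157 in edgeR) and −0.33 (SE 0.44; adjusted p = 0.657 in edgeR). Snx7 lay at 2.41, 3.27 and 2.27 CPM in Ctrl 1, 2 and 3 and at 6.41 and 3.54 CPM in cKO 1 and 2, so that the groups did not overlap but the cKO pools differed by 1.81-fold. Snx8, which is linked to transport from endosomes to the Golgi, had 0.18 (SE 0.24; adjusted p = 0.645 in edgeR).

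Of the 8 members classed by their PX domain, among them Snx29 with an added RUN domain, the 7 other than Snx22 were not called by edgeR. Snx11, a relative of Snx10, came closest. It lay at 15.96, 17.8 and 17.8 CPM in Ctrl 1, 2 and 3 and at 10.5 and 11.7 CPM in cKO 1 and 2, with no overlap. Its change of −0.63 (SE 0.17) missed the threshold in edgeR (adjusted p = 0.0555) and passed it in DESeq2 (adjusted p = 0.0293). With the replicate block its adjusted p was 0.307 in edgeR. Snx10, known for its role in osteoclast acidification, had 10.7, 10.4 and 8.95 CPM in Ctrl 1, 2 and 3 and 11.9 and 6.37 CPM in cKO 1 and 2. It straddled the Ctrl range, and the cKO pool with the higher macrophage and leukocyte sum was the higher one; the part of that sum was not tested. Its change of −0.14 (SE 0.30) was not called (adjusted p = 0.799 in edgeR). Without cKO 1, a fit that kept 1 cKO library, the change was −0.67.

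Snx3, the most abundant member in cKO, lay at 118, 116 and 115 CPM in Ctrl 1, 2 and 3 and at 147 and 119 CPM in cKO 1 and 2. Both cKO pools were above every Ctrl pool, by little in cKO 2, and the change of 0.20 (SE 0.14) was not called (adjusted p = 0.399 in edgeR). Its relative Snx12 had 0.11 (SE 0.21; adjusted p = 0.768 in edgeR). Per length, Snx3 exceeded Snx12 by 12.7- to 15.6-fold in Ctrl and by 15.3- and 11.7-fold in cKO 1 and 2. Snx24, like Snx22 a small PX protein, had a change of 0.14 (SE 0.15; adjusted p = 0.591 in edgeR). Snx22 RNA exceeded Snx24 RNA by 13.5- to 15.1-fold per length in Ctrl and by 2.77- and 2.52-fold in cKO 1 and 2. Snx16 (0.41), Snx29 (−0.88) and Snx15 (−0.64), the last with an added MIT domain, were not called (adjusted p = 0.625, 0.205 and 0.295 in edgeR). Snx21, a relative of Snx20, had 0.79 (SE 0.35; adjusted p = 0.183 in edgeR). It shares 246 exonic bases with Acot8 on the opposite strand in GENCODE M21, and its counts were not whole, so its level is uncertain.

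The 4 large members with a PXA domain were not called by edgeR. Snx14, which links the endoplasmic reticulum to lipid droplets, had 0.06 (SE 0.16; adjusted p = 0.834 in edgeR) and Snx13 had −0.24 (SE 0.18; adjusted p = 0.411 in edgeR). Snx25 had 18, 13 and 10 counts in Ctrl 1, 2 and 3 and 31 and 34 in cKO 1 and 2. Its groups did not overlap, and its change of 1.03 (SE 0.62) was not called (adjusted p = 0.302 in edgeR), though it was by limma on log2 FPKM with 1 added (0.61, adjusted p = 0.0219) or 0.1 added (1.68, adjusted p = 0.0312). Snx19 had −0.56 (SE 0.35; adjusted p = 0.324 in edgeR), with 9.46, 9.37 and 12.3 CPM in Ctrl 1, 2 and 3 and 4.53 and 9.53 CPM in cKO 1 and 2. Among members with a mean of at least 1 CPM in cKO, the spread between the cKO pools was widest for Snx29 (2.38-fold) and Snx19 (2.10-fold), both lower in cKO 1, and its median was 1.25-fold.

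In CPM, every cKO pool lay above every Ctrl pool for 7 of the 29 tested members and below for 8. Snx31 was among the 7 and Snx22 among the 8, and their values led to the choice of the family. Over all genes tested these shares were 22.8% and 28.7%, or 51.5% in either direction, so the members lay near the background. In the deposited FPKM, which are not TMM-scaled, 14 of the 29 lay above and 6 below, with Snx31 and Snx22 again included. Over all genes tested the shares in FPKM were 31.0% and 20.4%. The direction of small differences therefore depended on the scaling.

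The summed level of the family moved with Snx22. All 30 genes summed to 357, 381 and 414 FPKM in Ctrl 1, 2 and 3 and to 328 and 343 FPKM in cKO 1 and 2. Snx22 made up 31.0, 33.2 and 32.2% of the sum in Ctrl and 7.99 and 9.28% in cKO. Without Snx22 the sums were 247 to 280 FPKM in Ctrl and 302 and 311 FPKM in cKO, so that the order of the groups turned. In CPM, the sum without Snx22 was 583 to 596 in Ctrl and 600 and 539 in cKO 1 and 2, and the groups overlapped. Snx3 took 20.4 to 21.5% of the FPKM sum in Ctrl and 32.5 and 29.5% in cKO 1 and 2. Snx31 took 0.0578 to 0.0814% in Ctrl and 1.81 and 2.35% in cKO 1 and 2. Since these values include the genes that led to the choice of the family, no test is given.

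**Figure D4:**
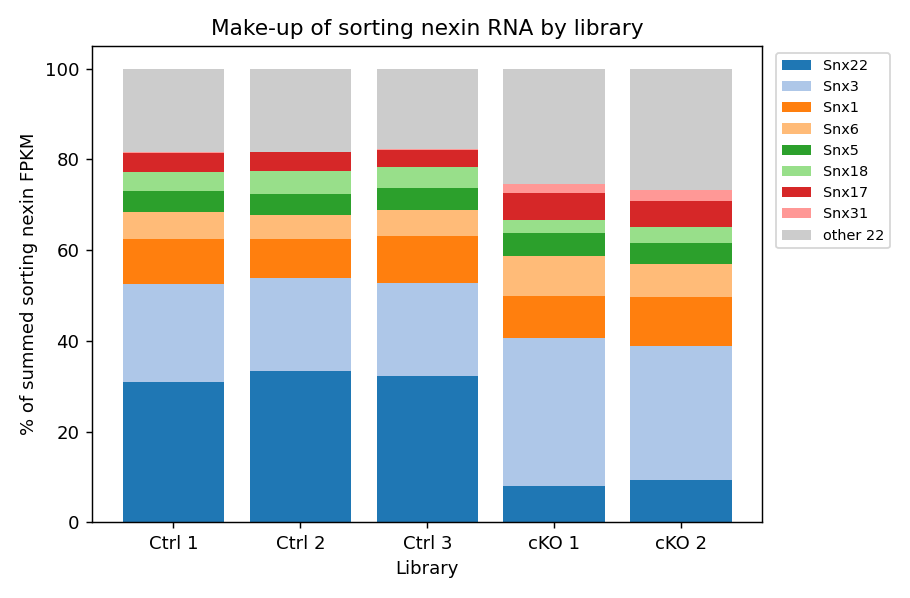
Share of the summed sorting nexin FPKM taken by each of the 8 named genes and by the other 22 together, as stacked percentages for each library. Snx22 takes 31.0 to 33.2% in the Ctrl libraries and 7.99 and 9.28% in cKO 1 and 2, and Snx3 is the largest part in both cKO libraries.

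Genes that work with sorting nexins were read from the same test. The 9 lists named 127 genes, of which 126 were found, since the entry Sortl1 matched no symbol and was not analysed here. Of these, 117 were tested, 12 were higher and 6 were lower (10.3% and 5.13%, against 5.76% and 7.73% of all genes). The median log2 fold change of the 117 was 0.08. All 18 calls kept their sign in each of the 13 alternatives. None of the 18 was called by edgeR with Ctrl 1, 2 or 3 left out. In those fits only 0.566, 0.182 and 0.713% of all genes tested were called.

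Of the 4 retromer subunits, the small Vps29 rose by 0.81 (SE 0.20; adjusted p = 0.0458 in edgeR), from 59.4 ± 2.63 to 104 ± 30.3 CPM. The other 3, Vps35, Vps26a and Vps26b, had changes of −0.24, −0.36 and −0.41 and were not called (adjusted p = 0.393, 0.424 and 0.231 in edgeR). Of 9 retromer regulators 1 was lower, Mon1b, which takes part in recruiting Rab7 to endosomes (−1.28 with SE 0.28, adjusted p = 0.0363 in edgeR). In the WASH complex, which builds actin on endosomes, 2 of 5 genes were lower and 0 higher. Washc3 fell by 1.96 (SE 0.31; adjusted p = 0.0188 in edgeR), from 83.8 ± 5.31 to 21.6 ± 10.4 CPM, and Washc4 fell by 0.62 (SE 0.14; adjusted p = 0.0391 in edgeR). The Commander complex, the partner of Snx17, had 1 of 15 genes higher and 0 lower, with a median of 0.34. The higher gene was Commd6 (0.68 with SE 0.13, adjusted p = 0.029 in edgeR).

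The enzymes that make or remove the lipids bound by PX domains had 0 of 18 tested genes higher and 1 lower. This was Mtmr3, a lipid phosphatase gene, which fell by 1.54 (SE 0.20; adjusted p = 0.0126 in edgeR), from 129 ± 14.5 to 44.6 ± 10.5 CPM. Of 18 early endosome genes 2 were higher and 0 lower, namely the recycling GTPase gene Rab11a (0.65 with SE 0.13, adjusted p = 0.0319 in edgeR) and Stam (0.60 with SE 0.14, adjusted p = 0.0442 in edgeR). Of 18 tested genes for clathrin coats and dynamin 4 were higher and 0 lower. Picalm, which encodes a clathrin assembly protein, rose by 1.85 (SE 0.23; adjusted p = 0.0111 in edgeR), and the clathrin light chain gene Clta rose by 0.91 (SE 0.15; adjusted p = 0.021 in edgeR). Ap2s1, for a subunit of the AP2 adaptor, rose by 0.70 (SE 0.15; adjusted p = 0.0337 in edgeR), and Cltb, for the other light chain, by 0.62 (SE 0.15; adjusted p = 0.0494 in edgeR). Dnm2, the dynamin gene with the highest level, had −0.22 (SE 0.14; adjusted p = 0.312 in edgeR).

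Receptors carried by sorting nexins moved both ways, with 4 of 18 tested genes higher, 1 lower and a median of −0.09. Igf2r, the retromer cargo that carries mannose 6-phosphate, rose by 1.39 (SE 0.29; adjusted p = 0.033 in edgeR), as did the insulin receptor gene Insr (1.39 with SE 0.30, adjusted p = 0.0342 in edgeR). Lrp8, which encodes a lipoprotein receptor, was also higher (1.31 with SE 0.31, adjusted p = 0.0446 in edgeR), and the copper transporter gene Atp7a was the lower one (−1.22 with SE 0.28, adjusted p = 0.0412 in edgeR). Egfr had 27, 26 and 6 counts in Ctrl 1, 2 and 3 and 0 in both cKO libraries, and was not called (adjusted p = 0.0505 in edgeR). Its mean Ctrl level, 0.917 ± 0.595 CPM, was 7.83 times the mean level of 3 counts in cKO. The Ctrl libraries differed widely, so the fold is smaller against Ctrl 3. Putting Egfr at 7.83-fold lower left the list median at −0.09. Of 14 tested PX-domain genes outside the Snx names, 0 were higher and 1 was lower, Nisch (−0.84 with SE 0.18, adjusted p = 0.035 in edgeR), with a median of 0.56.

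**Figure D5:**
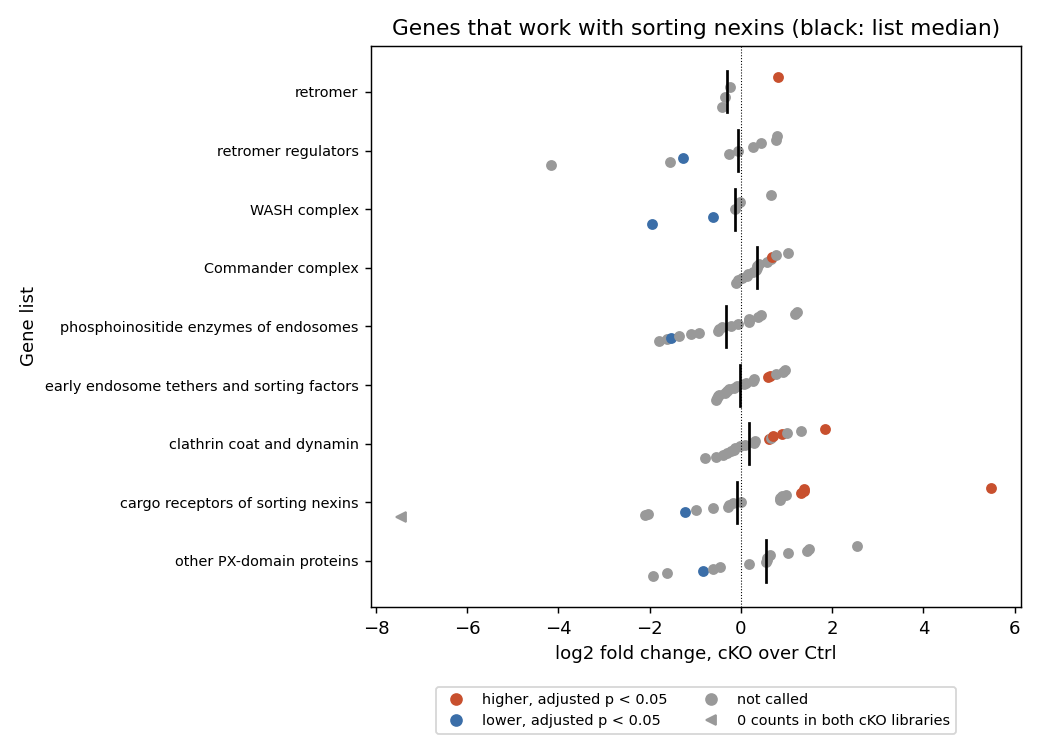
Log2 fold change (cKO over Ctrl) of each tested gene in the 9 lists of genes that work with sorting nexins, with the list median as a black bar. Genes called by edgeR are in colour, 12 higher and 6 lower, and the triangle is Egfr, whose plotted value is a fitted one since it had 0 counts in cKO.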

How the data were processed

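Poly(A) RNA with an integrity number above 8.0 (1 µg per library) was sequenced as paired reads of 150 bp, per the labels' protocols. The authors deposited expected counts and FPKM for 22183 genes. Named in the submitters' processing notes are Trimmomatic 0.18.0, RSEM and the build GRCm39. The labels name no aligner and no strand setting. The authors' expected counts carry no scaling, and 6.03 to 7.47% per library were not whole. The FPKM values, so named in the file headers, were scaled by the authors to gene length and library size.

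Expected counts were rounded. Where a symbol was shared, the identifier with the highest total kept it. Genes passing filterByExpr (minimum count 10, minimum total 15; 11724 genes) were scaled by TMM and tested with edgeR 4.0.16 (quasi-likelihood F test, R 4.3.3), with Benjamini-Hochberg adjustment over all of them and a threshold of 0.05. The labels call the pools biological replicates without saying which animals each holds, so p-values measure the spread between these pools. Each SE of a log2 fold change is its size divided by the square root of the F statistic, and was not estimated separately. The steps were tested on simulated data. At the common dispersion of these data (0.128), 73% of 4-fold and 99% of 8-fold changes in well-covered genes were recovered, with 9 false calls. Changes below 4-fold were not simulated. DESeq2 1.42.0 and limma 3.58.1 on log2(FPKM + 1) and log2(FPKM + 0.1) served as alternatives, beside other scalings and filters, a replicate block and leaving out each library.

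The members, gene lists and tests were chosen with earlier results of these data known. Named were all Snx genes, Yap1, genes overlapping a member, and up to 3 called genes per list with the largest change. Values per library were given by rule for Snx22, Snx31, the called members and the 4 most abundant in Ctrl. Those of other members, the neighbours within 3 protein-coding places of the 4 called members, the motifs, the uncalled retromer subunits, Dnm2, Egfr, Cltb, Lrp8 and Atp7a were chosen after their values were seen. A permutation test planned for the summed level is not given, since the members were not chosen independently of it. Floors of 3 counts cover counting error only. The values of 1 called gene of the lists are not reported here.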

Additional observations from a re-analysis of the deposited data

How the results depend on the processing

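Over the tested sorting nexins (Snx22 and Snx31 included, which led to the choice of the family) and the 13 alternatives, 345 values kept direction and side of the threshold, 13 gained a call, 8 lost one and 10 changed sign. The sign changes were in members without a call in edgeR with all libraries. With 1 library left out, log2 fold changes ranged from −0.19 to 0.24 for Snx6, −0.097 to 0.35 for Snx4, −0.67 to 0.25 for Snx10, −0.11 to 0.17 for Snx27, −0.043 to 0.85 for Snx16 and −0.87 to 0.065 for Snx30. Snx10 was also positive with total-count scaling (0.051) and with limma on log2 FPKM with 1 (0.0095) or 0.1 added (0.0051). Leaving out 1 library gave 1 to 4 higher and 1 to 6 lower sorting nexins with Snx31 and Snx22 counted, 6 to 2197 higher and 15 to 2964 lower genes in all, a median over the sorting nexins of −0.043 to 0.16 and a summed level of 0.844 to 0.909 times Ctrl. All genes called numbered 675 higher and 906 lower in edgeR, and 1209 and 1521 in DESeq2. Higher and lower genes numbered 1234 and 717 with total-count scaling, 1380 and 743 with log2(FPKM + 1), and 1402 and 835 with log2(FPKM + 0.1), where the sorting nexin medians were 0.27, 0.27 and 0.28. Total-count scaling moved the median of all genes from −0.06 to 0.16. The summed FPKM in cKO was 0.874 times that in Ctrl, 0.797 times as a share of counts, 0.678 times as a share of counts without crystallins and 1.18 times without Snx22. The cause of these shifts was not tested.

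The labels state no pairing, and deviations of same-numbered cKO and Ctrl libraries correlated at 0.11 (number 1) and −0.08 (number 2). The deviations of the 2 cKO libraries mirror each other, and Ctrl 3 with cKO 2 gave 0.15. These correlations therefore cannot decide whether the libraries were paired. With the replicate block, 68 genes were higher and 107 lower, and Snx18 and Snx32 were not called (adjusted p = 0.109 and 0.175 in edgeR). With Snx31 and Snx22 counted, the block gave 1 higher and 1 lower and a median of 0.12, and 2 of the 18 called partner genes were called (Washc3 and Mtmr3). Where 1 cKO library was left, it was assumed to vary like Ctrl. Depth limits the values of Snx20, Snx25, Snx33 and, in Ctrl, Snx31 most.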
